A study of Mus musculus with 3 samples.

Results

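Rsad2, Cmpk2, Ifit1, Ifit2, Ifit3, Isg15, Isg20, Gbp2, Gbp5 and Slfn2 are 10 genes that interferon induces as part of the antiviral response, and EZH2 intervals were taken from 10 kb before to 10 kb after each of them. They are 10 of the 21887 protein-coding genes that RefSeq places on the assembled chromosomes of GRCm38.p6, the same assembly as mm10. The genes were proposed with the interval calls of these same libraries known, so the calls and summit values given below chose the genes in part, and are a description with no test. The 2 EZH2 libraries came from bone marrow-derived macrophages of C57BL/6 mice, which are marrow cells grown for 5 days with M-CSF. One library was from cells given lipopolysaccharide (LPS), a bacterial cell wall component, for 2 h, and the other from non-treated cells (NT). Both were immunoprecipitated with the same EZH2 antibody. The third sample was input DNA, from which no intervals were used here, and the labels do not say from which cells it came. There was 1 library per condition, and the labels give neither the number of mice nor whether they were pooled. EZH2 intervals do not measure transcripts, so the labelled cell type could not be checked against expressed markers.

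EZH2 is the catalytic subunit of polycomb repressive complex 2, which methylates lysine 27 of histone H3 and is best known from CpG-rich promoters of silent developmental genes. LPS is sensed by Toll-like receptor 4, which in macrophages leads within hours to interferon-beta and, through the interferon receptor, to transcription of interferon-stimulated genes. Many products of these genes act against pathogens, on nucleotides, RNA, proteins or the membranes that hold a pathogen.

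In all, 4651 intervals were listed for LPS and 9643 for NT, with median summit values of 16 in LPS and 27 in NT. The summit value is the whole number deposited at the peak of each interval. Its unit, the read depth and the scaling between libraries are not given in the sources used here, so a lower value in one library cannot be read as less EZH2. The stimulated track is named TLR rather than LPS, and was taken as the LPS sample because that is the only stimulated EZH2 sample. This holds for every LPS value below.

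In LPS, 6 of the 10 genes had an interval (Rsad2, Cmpk2, Ifit1, Isg20, Gbp5 and Slfn2), where 21.2% of all protein-coding genes did. In NT, 2 of the 10 had one (Cmpk2 and Isg15), against 46.0% of all protein-coding genes. An interval in LPS alone was found at 5 of the 10, which were Rsad2, Ifit1, Isg20, Gbp5 and Slfn2, and at 0.635% of all genes. Cmpk2 had an interval in both libraries (20.6% of all genes), Isg15 in NT alone (25.4%), and Ifit2, Ifit3 and Gbp2 in neither (53.3%). Because the genes were proposed with these calls in view, nothing is read from the difference between their counts and these background shares. The windows of the 10 genes held 9 LPS intervals with summit values of 8 to 22 (median 13) and 4 NT intervals with values of 23 to 42 (median 26). Of the 9 LPS intervals, 1 met an NT interval, and the other 8 lay between 12083 and 104597 bp from the nearest one.

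**Figure D1:**
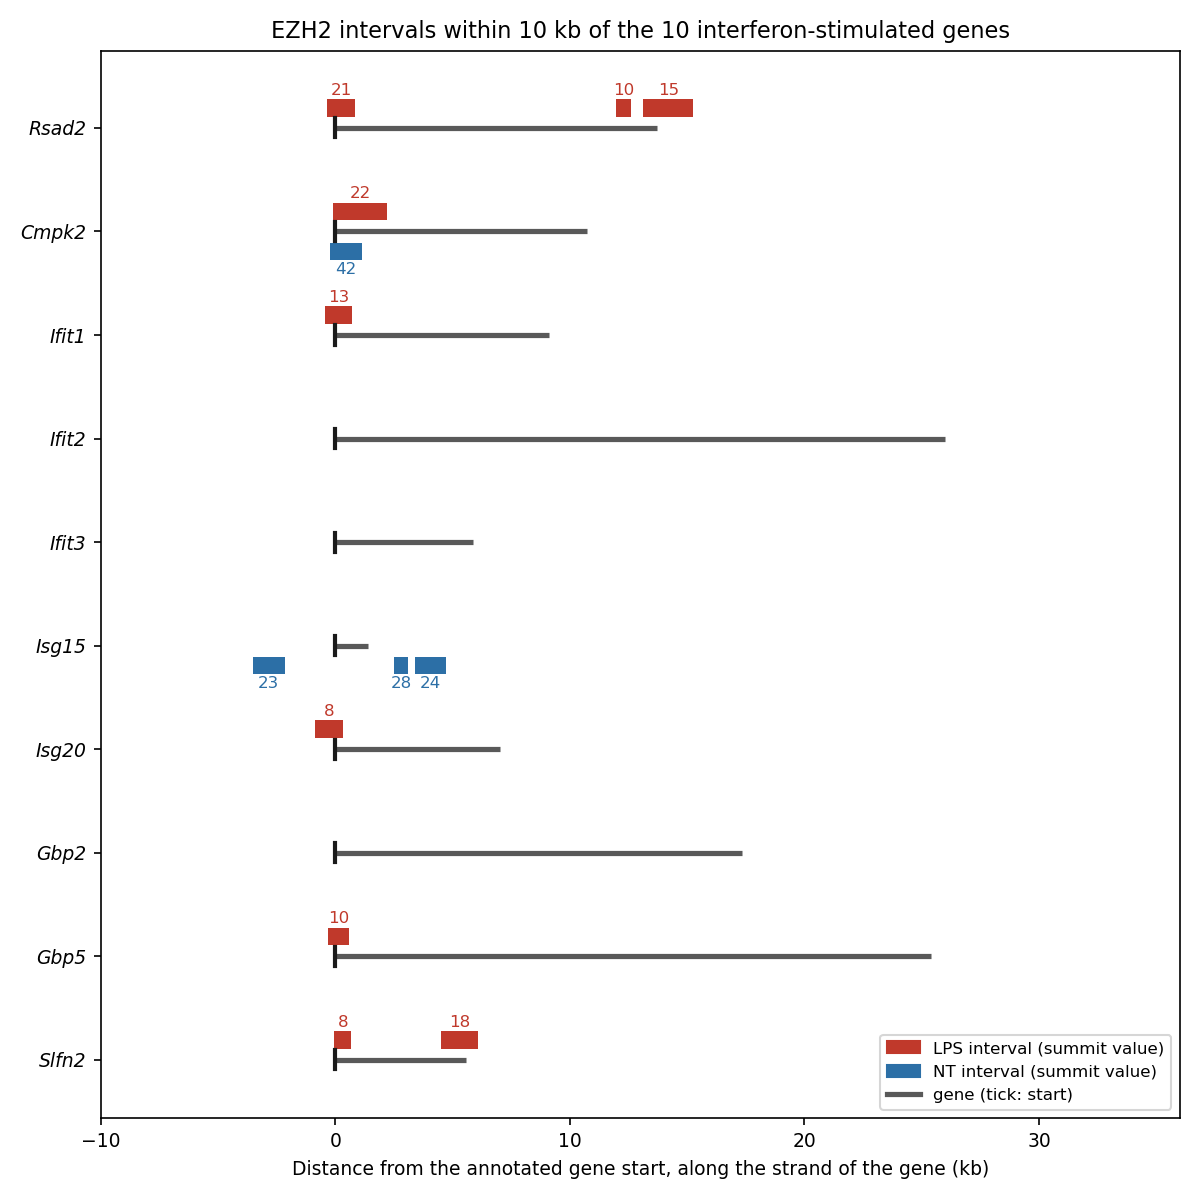
EZH2 intervals within 10 kb of each gene, drawn to scale against the distance from the annotated gene start in kb along the strand of the gene, with LPS intervals (red) above and NT intervals (blue) below the gene line, and the summit value at each interval. The 6 genes with an LPS interval have one at the start, Rsad2 and Slfn2 have another at the opposite end, and NT intervals are found at Cmpk2 and on both sides of Isg15.

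The first group of genes acts on nucleotides. Rsad2 encodes viperin, a radical SAM enzyme that turns CTP into a chain terminator of viral RNA synthesis, and Cmpk2 encodes a mitochondrial nucleoside monophosphate kinase. The genes are divergent neighbours on chromosome 12 with 12664 bp between them. At Rsad2 (chr12:26442743-26456452, minus strand) there were 3 LPS intervals and no NT interval. The highest, chr12:26455598-26456809, had a summit value of 21 and a summit 228 bp inside the annotated start. The next, chr12:26441184-26443328, had a value of 15 and lay over the far end of the gene, with its summit 999 bp past that end. Between them and nearer to the end, chr12:26443832-26444506 had a value of 10. The 3 intervals covered 4032 bp of the window, the most among the 10 genes.

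Cmpk2 (chr12:26469117-26479837, plus strand) was the 1 gene of the 10 with an interval in both libraries. Its LPS interval, chr12:26469030-26471309, had a value of 22, and its NT interval, chr12:26468892-26470245, had 42. Their summits were 112 bp apart, 1216 bp were shared, and the LPS interval ran 1064 bp further into the gene. The ratio of LPS to NT value was 0.524, close to the median of 0.488 (quartiles 0.40 and 0.579) over the 4375 LPS intervals of the whole list that met an NT interval. The start of Cmpk2 thus carried a pair like most others, whereas the start of its neighbour Rsad2 had a like LPS value of 21 and no NT interval. The NT interval of Cmpk2 lay just outside the Rsad2 window, 12440 bp from that gene. The farthest interval inside any window was 2168 bp from its gene.

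The second group acts on RNA. Ifit1 binds viral RNA whose cap lacks host methylation, and Ifit2 and Ifit3 are related tetratricopeptide proteins of the same cluster on chromosome 19. Ifit1 (chr19:34640889-34650009, plus strand) had 1 LPS interval, chr19:34640456-34641607, with a value of 13 and its summit 87 bp after the annotated start. The nearest NT interval was 104597 bp from that interval. Ifit2 and Ifit3 had no interval in either library, and their nearest LPS interval was the one at Ifit1, 63922 bp and 51474 bp away. In the whole cluster of 6 Ifit genes over 112 kb, the LPS list held that 1 interval and the NT list none. Ifit1bl1 and Ifit1bl2, which run on the opposite strand, overlap it too, so it cannot be assigned to Ifit1 alone.

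Isg20 encodes an exonuclease that degrades single-stranded RNA. At Isg20 (chr7:78913396-78920396, plus strand) the LPS interval chr7:78912546-78913727 had a value of 8, with its summit at position -575 bp from the start of the gene. The nearest NT interval was 29327 bp from the gene.

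Isg15 encodes a ubiquitin-like protein that is conjugated to other proteins, and it differed from the rest. Isg15 (chr4:156199424-156200818, minus strand) had its nearest LPS interval 386327 bp away, and 3 NT intervals with values of 24, 28 and 23 lay 2018, 1109 and 2168 bp from it. None of the 3 overlapped Isg15. One overlapped Agrn, another lay 183 bp from Agrn, and the third overlapped Perm1. Of all 9643 NT intervals 43.2% met an LPS interval, and the share was lower at values like these. Of the NT intervals with a value within 2 of theirs, 27.6%, 36.8% and 25.4% met an LPS interval.

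The last group holds large GTPases that attack the membranes around pathogens, and a Schlafen gene. Gbp5 (chr3:142496934-142522344, plus strand) had 1 LPS interval, chr3:142496634-142497497, with a value of 10 and its summit 226 bp after the start. Gbp2, in the same cluster, had none in either library, and its nearest LPS interval was the one at Gbp5, 123166 bp away. Over the 141 kb cluster of 5 Gbp genes on chromosome 3, LPS had that 1 interval and NT had none. Slfn2, known in mice for keeping T cells quiescent, lies at chr11:83065112-83070678 on the plus strand and had 2 LPS intervals. One, chr11:83065069-83065784, had a value of 8 with its summit 256 bp after the start. The other, chr11:83069632-83071212, had 18 with its summit 10 bp past the end of the gene, so the higher value was at the end and not at the start. At Rsad2 the start was the higher of its ends. In the Schlafen cluster of 8 genes over 335 kb there were 6 LPS intervals, with values from 8 to 18, and 1 NT interval, with a value of 14.

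**Figure D2:**
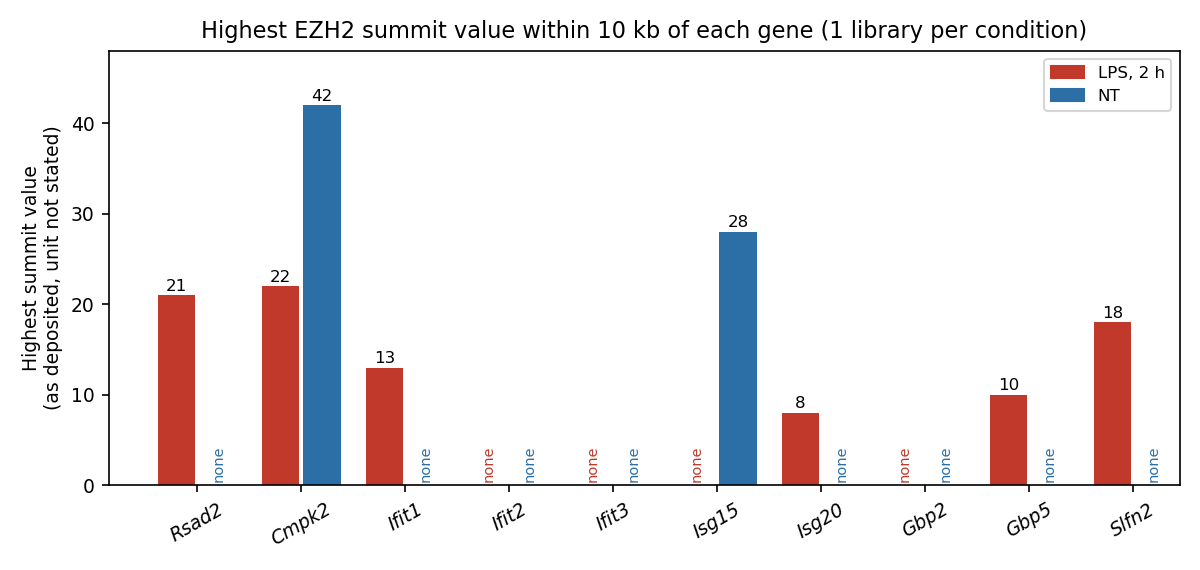
Highest summit value (deposited whole numbers, unit not stated) within 10 kb of each gene in the LPS library (red, left) and the NT library (blue, right), 1 library each. Cmpk2 has a bar in both (22 and 42), Isg15 in NT alone (28), 5 genes in LPS alone (8 to 21), and "none" marks a library with no interval.

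By position, all 9 LPS intervals overlapped the gene they were counted for, and of the 4 NT intervals 1 did, the one at Cmpk2. Over all pairs of a protein-coding gene and an interval in its window, 67.5% of 6360 pairs in LPS and 68.5% of 14069 in NT overlapped the gene. Of the 9 LPS summits, 6 were within 1 kb of the annotated start, 1 at each of the 6 genes, and 2 were within 1 kb of the far end. Over the pairs whose gene has a strand in the RefSeq promoter table, the summit was within 1 kb of the start in 42.4% of 4857 pairs in LPS and 49.8% of 11092 in NT, so a place at the start was common in both lists. Separate LPS intervals at both ends of a gene, within 1 kb of each, were found at Rsad2 and Slfn2 and at 0.612% of all protein-coding genes (134 genes). The same layout of NT intervals was found at 1.43% of all genes (312 genes) and at 0 of the 10, so it was not a feature of the LPS list alone. At 0.0274% of all genes, these 2 among them, there was in addition no NT interval in the window. This count was chosen after the positions had been seen.

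How far an LPS value of this size goes with an NT interval elsewhere was read from the whole LPS list. Of all 665 LPS intervals with a value within 2 of the 21 at Rsad2, 98.8% (95% Wilson interval 97.6 to 99.4%) met an NT interval, with a median NT value of 41. For the 18 at Slfn2 the share was 97.2% (95.9 to 98.1%) of 895, and for the 13 at Ifit1 it was 90.9% (89.4 to 92.2%) of 1619. At the 10 of Gbp5 it was 84.6% (82.5 to 86.5%) of 1268, and at the 8 of Isg20 it was 80.6% (77.0 to 83.8%) of 521. The Wilson intervals reflect counting error alone, and not the spread between libraries. The 10 genes were proposed with their calls known, so these shares describe the whole list and test nothing about the 10. Lone LPS intervals were mostly of low value. Among the 276 LPS intervals with no NT interval (5.93% of the list, median value 11, highest 24), the one at the start of Rsad2 ranked 3. Isg20 and Gbp5 rest on LPS values of 8 and 10, while no NT interval had a value under 11. The scaling between the libraries is unknown, so these values cannot be set on one scale. Where LPS intervals with values like that of Isg20 met an NT interval, the median NT value was 25 (lowest 13). For values like that of Gbp5 it was 26 (lowest 12). Whether the lowest listed NT value bears on the missing NT intervals was not tested. In all, 4 of the 9 LPS intervals had a value under 11, among them the start interval of Slfn2 and the lowest of the 3 at Rsad2.

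**Figure D3:**
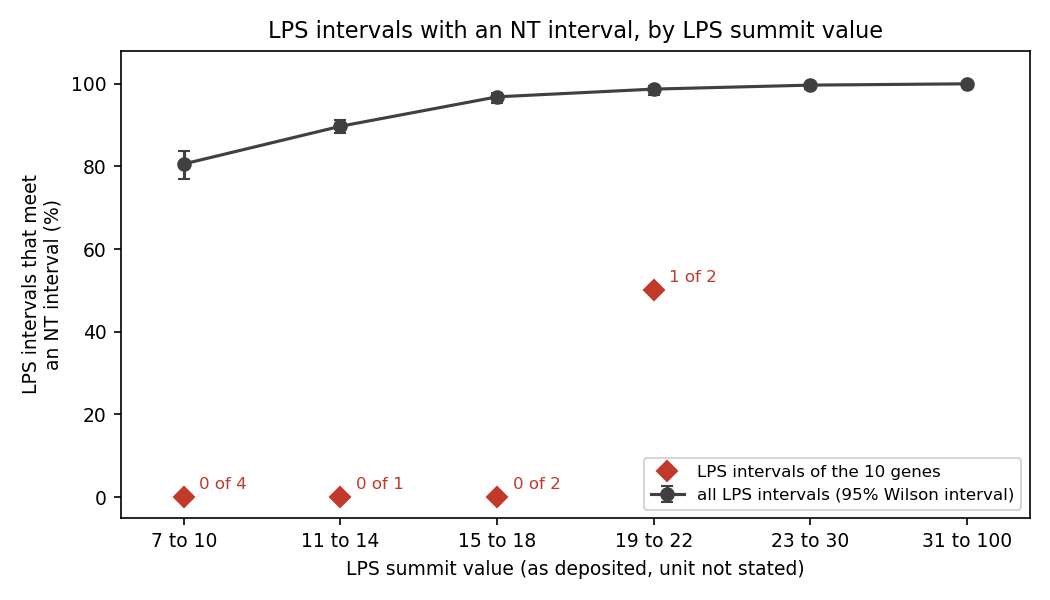
Share of LPS intervals that meet an NT interval (%, vertical axis) by LPS summit value (horizontal axis), for all LPS intervals (grey circles, 95% Wilson intervals) and for the 9 LPS intervals of the 10 genes (red diamonds, with counts). The share over all intervals runs from 80.6% at values of 7 to 10 to 100% above 30, and of the 9 intervals of these genes 1 met an NT interval, in the bin of 19 to 22. The 10 genes were proposed with these calls known, so the diamonds are no test against the circles.

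Promoter sequence is not named among the criteria for the genes, but the CpG content of a start went with the calls over all genes, so the values below are a description. RefSeq promoter windows, from 250 bases before to 50 bases after an annotated start on GRCm38.p6, were given for all 10 genes, 13 windows in all. LPS intervals lay over 7 of these windows, at 6 genes, and the NT interval of Cmpk2 over 1 of them. Over all 21263 windows of protein-coding genes, 11.9% were under an LPS interval and 32.3% under an NT interval. The CpG ratio, observed over expected, was 0.0551 to 0.55 in the 13 windows (median 0.289), and each was below the median of 0.567 over all windows. In the 7 under an LPS interval it was 0.291 at Rsad2, 0.331 at Cmpk2, 0.211 at Ifit1, 0.0551 and 0.289 at Isg20, 0.332 at Gbp5 and 0.11 at Slfn2. Over all genes, the 2422 windows with an interval in both libraries had a median of 0.778, and the 105 with one in LPS alone a median of 0.655. Of the 2527 windows under an LPS interval, 5.03% had a ratio as low as 0.332 or lower. That cut is the highest of the 7 values, and most of the 2527 windows also had an NT interval, whereas 6 of the 7 had none. The lower quartile was 0.380 in the windows in LPS alone and 0.630 in those in both. Each of the 7 lay below the lower quartile of its own group, so these starts were low in CpG for a start with an LPS interval. Against the 14281 windows with no interval, all 7 were below the median (0.335), though Cmpk2 and Gbp5 only just. Of the 7, 2 were below the lower quartile (0.154), 1 at Isg20 and the one at Slfn2. The others lay between the quartiles (0.154 and 0.689), within the usual range of windows with no interval.

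**Figure D4:**
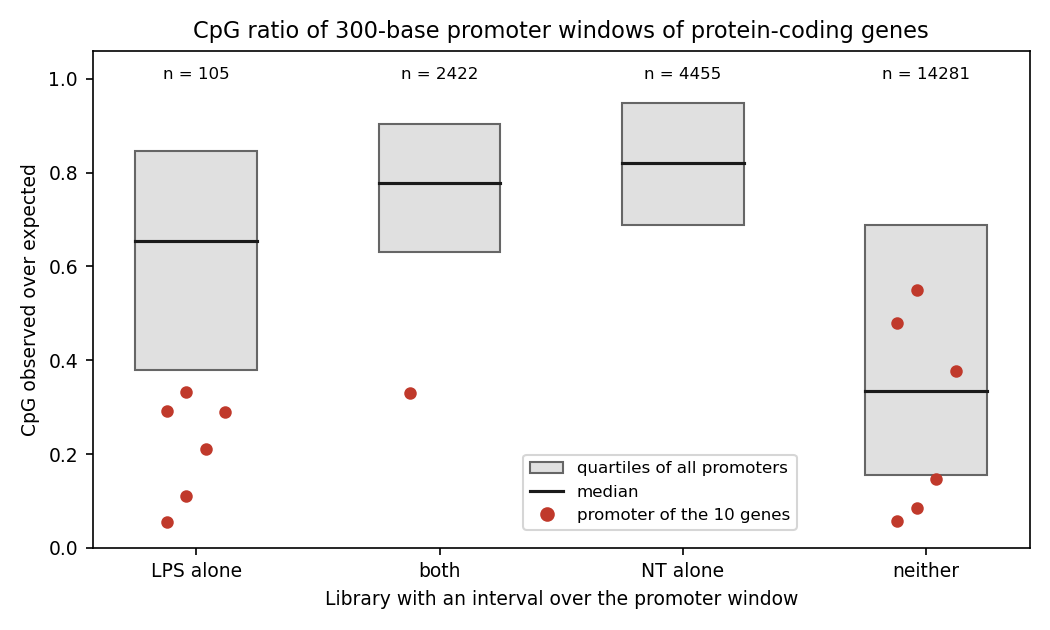
CpG observed over expected in 300-base promoter windows of protein-coding genes, grouped by the library with an interval over the window. Grey boxes span the quartiles and black lines the median of all windows (n above each), and red points are the 13 windows of the 10 genes. The 6 points under LPS alone and the 1 under both lie at or below 0.332, under the boxes.

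The core of the interferon-stimulated response element was searched on both strands of these windows because interferon signalling acts on its target genes through such elements. It was found in 6 of the 13 windows, at 6 of the 10 genes, and in 3.35% of the 21263 windows. Of these 6, Rsad2, Ifit1 and Gbp5 had an LPS interval over the window and Isg15, Ifit3 and Gbp2 had no LPS interval, so the matches were found with and without one. The 250 bases before the start of these 6 genes are shown so that both kinds can be compared, 5′ to 3′ along the gene, from RefSeq on GRCm38.p6. Capitals mark matches to this core and, at Gbp5 alone, also 1 match to a form of the NF-kB site.
Rsad2 (chr12:26456453-26456702, minus strand): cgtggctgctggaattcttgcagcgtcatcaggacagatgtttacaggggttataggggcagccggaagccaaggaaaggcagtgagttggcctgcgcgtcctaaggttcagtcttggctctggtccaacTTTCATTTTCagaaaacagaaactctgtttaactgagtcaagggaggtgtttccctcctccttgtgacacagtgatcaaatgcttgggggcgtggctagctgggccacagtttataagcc
Ifit1 (chr19:34640639-34640888, plus strand): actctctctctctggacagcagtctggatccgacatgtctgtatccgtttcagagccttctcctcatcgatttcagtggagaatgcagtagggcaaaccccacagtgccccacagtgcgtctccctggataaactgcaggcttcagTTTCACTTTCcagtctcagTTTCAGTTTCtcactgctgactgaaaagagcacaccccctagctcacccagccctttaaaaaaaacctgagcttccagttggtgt
Gbp5 (chr3:142496684-142496933, plus strand): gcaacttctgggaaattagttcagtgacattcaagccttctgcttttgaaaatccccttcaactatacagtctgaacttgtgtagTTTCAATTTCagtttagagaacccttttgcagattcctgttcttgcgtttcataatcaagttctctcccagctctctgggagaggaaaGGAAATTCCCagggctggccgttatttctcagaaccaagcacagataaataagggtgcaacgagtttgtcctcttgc
Isg15 (chr4:156200819-156201068, minus strand): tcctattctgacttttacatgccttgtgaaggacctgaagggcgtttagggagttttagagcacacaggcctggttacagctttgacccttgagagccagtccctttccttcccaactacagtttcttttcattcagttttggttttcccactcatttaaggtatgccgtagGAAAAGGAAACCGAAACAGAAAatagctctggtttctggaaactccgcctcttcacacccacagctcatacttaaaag
Ifit3 (chr19:34583279-34583528, plus strand): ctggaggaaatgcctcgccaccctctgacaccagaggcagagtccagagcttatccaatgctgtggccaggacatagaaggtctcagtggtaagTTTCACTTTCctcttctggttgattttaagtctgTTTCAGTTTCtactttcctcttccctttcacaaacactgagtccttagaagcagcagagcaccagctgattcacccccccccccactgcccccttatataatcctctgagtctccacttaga
Gbp2 (chr3:142620413-142620662, plus strand): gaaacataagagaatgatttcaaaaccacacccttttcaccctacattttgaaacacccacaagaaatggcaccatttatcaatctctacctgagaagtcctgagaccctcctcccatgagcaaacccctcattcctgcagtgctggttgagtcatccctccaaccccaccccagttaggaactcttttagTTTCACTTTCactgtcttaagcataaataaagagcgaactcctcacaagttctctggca

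Positions are counted from the annotated start, at the first base of the match. Rsad2 had 1 match at -120, Gbp5 1 at -165 and Gbp2 1 at -59. Ifit1 had 2, at -104 and -85, and Ifit3 had 2, at -156 and -122. At Isg15 3 overlapping matches ran from -78, -72 and -66. The NF-kB form was found on either strand in 0.423% of all windows and, among the 10 genes, at Gbp5 (-77). The gamma-activated site TTCNNNGAA was found in 7.69% of all windows and at Ifit2, Isg20 and Gbp5. No match to one of these motifs overlapped a match to another in the 13 windows. Slfn2 and Cmpk2, both with an LPS interval over the window, had no match to any of them in these letters.

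Further interferon genes were taken from a list written with the results above in part known. RefSeq has 90 of its 94 genes as protein-coding, and the other 4 were dropped. Of the 90, 20 (22.2%) had an LPS interval within 10 kb, 29 (32.2%) an NT interval, 6 (6.67%) one in LPS alone, 15 one in NT alone, 14 in both and 55 in neither. The background shares are those given above (21.2% for LPS, 46.0% for NT and 0.635% for LPS alone). The 6 include Ifit1bl1 and Ifit1bl2, whose interval is the one already counted for Ifit1.

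The 6 genes with an interval in LPS alone were Slfn5 (value 17), Ifit1bl1 and Ifit1bl2 (13, the interval at the start of Ifit1), the cytidine deaminase gene Apobec3 (11), and the GTPase genes Irgm1 (11) and Ifi47 (9). The other 13 of 15 GTPase genes and the other 7 of 9 genes of the IFIT and OAS families had no interval in either library, so neither group had an NT interval.

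The other role groups had 0 or 1 gene each with an interval in LPS alone. Of 8 receptor and signalling genes, 1 had an LPS interval and 6 an NT interval, with values of 13 in LPS and 24 in NT at the kinase gene Jak1, and in NT alone of 36 at the interferon receptor gene Ifnar1. Of 6 transcription factor genes, 2 had an LPS interval, 3 an NT interval and 3 neither, with Irf1 at 13 in LPS and 39 in NT, and Stat2 in NT alone (18). Of 4 genes for ISG15 conjugation and removal, 3 had both, with Usp18, which encodes the protease that removes ISG15, at 12 in LPS and 25 in NT, Ube2l6 at 10 and 17, and Uba7 at 15 and 33. Of 11 sensors of nucleic acids 8 had neither, while Aim2 (25 in LPS and 39 in NT) and Ddx60 (16 and 17) had both. Of 23 other antiviral effectors 14 had neither. The 4 with both were Zc3hav1 (12 and 39), Rnf213 (14 and 37), Tdrd7 (18 and 38) and Mov10 (15 and 17). Both were also found at Parp9 and Dtx3l, which share their intervals (10 and 15). The values are the highest within 10 kb of each gene, so the LPS and NT values of a gene need not come from the same place. At Uba7 and Tdrd7 the LPS interval lay outside the gene. The genes with both are named for having an LPS interval, and the difference between these groups was not tested.

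**Figure D5:**
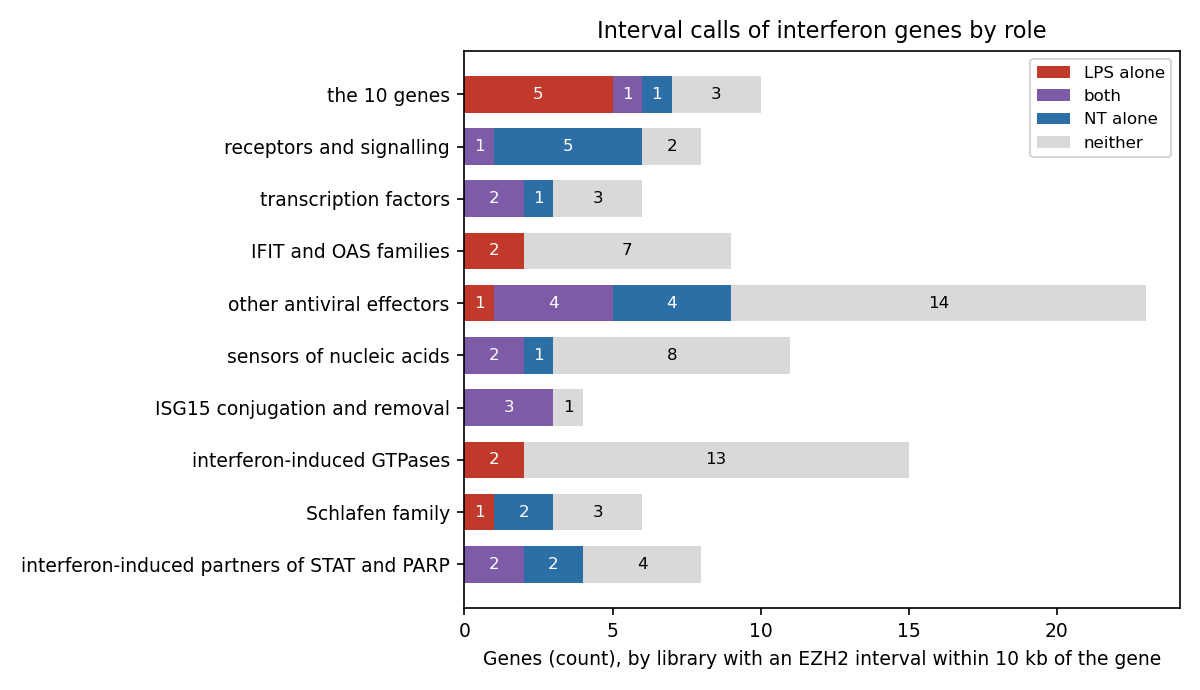
Number of genes (horizontal axis) with an EZH2 interval within 10 kb in LPS alone, in both libraries, in NT alone or in neither, for the 10 genes and for 9 groups of other interferon genes by role. Intervals in LPS alone appear in 4 of the 9 groups, and the receptors and signalling genes have NT intervals at 6 of 8 genes with 1 LPS interval.

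The genes with the most like pattern, outside the 10 and the list, were those with an LPS and no NT interval in the same window and the highest LPS values. Predicted genes passed over, 125 genes met this. The 8 highest were Pgap3 (33), the chemokine genes Ccl4 (24, with 4 intervals), Cxcl10 (23, with 2) and Ccl5 (18), Lrp11 (20), Nup85 and P3h2 (19 each) and Heatr9 (18, the interval at Ccl5). The interval of Pgap3 met an NT interval just outside the window, 10149 bp from the gene, and is no lone interval. By highest value among all 139 genes with an interval in LPS alone, Rsad2 ranked 4 and Slfn2 8, 1 of 5 genes at this value, while Ifit1, Gbp5 and Isg20 ranked 38, 96 and 134.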

How the data were processed

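EZH2 ChIP-seq was carried out by a service company on 1 LPS and 1 NT library, per the labels' protocols. The aligner BWA, the island caller SICER and the build mm10 appear in the submitters' processing notes without versions or roles. The authors deposited intervals and summits per library as tracks, per the file headers, with a score at each summit, called the summit value here. Its scaling, the depth, and the use of the input are not given in the sources used here, so precision per value is unknown. Interval positions are printed 1-based. Summit distances use the deposited BED start of the summit without this shift, so they can be off by 1 bp.

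The 10 genes and all lists were chosen with earlier results of these data known. An interval was counted for a gene when 1 bp or more lay within 10 kb of it, over 21887 protein-coding genes. With 1 library per condition there was no test between conditions. The counting of intervals in gene windows was checked on planted intervals at 200 genes, and all 200 were recovered. How the authors' intervals were called from reads was not tested. Genes named are the 10, list genes with an LPS interval, genes nearest to the intervals, and the 8 most like genes; other list genes named as having NT intervals alone (Ifnar1, Stat2) and the genes in the closing observations were chosen after their values were seen. Python 3.11.15, pandas 2.3.3 and scipy 1.17.1 were used. Alternatives were other windows, stricter lists, summits in place of intervals, and other overlaps. One gene of the list is counted in its totals and is not reported here by name.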

Additional observations from a re-analysis of the deposited data

How the results depend on the processing

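No paired analysis was possible because LPS and NT had a single library each. Of 60 recomputed counts, 10 moved by more than 1.5 times. Of 48 recomputed values of single genes whose reported value is above 0, 3 did. In the order of genes with an LPS interval, with an NT interval and with one in LPS alone, the counts for the 10 genes were 6, 2 and 5, and for the other interferon genes 20, 29 and 6. With each list at or above its median value, 3 of the 10 genes had an LPS interval and 2 (Rsad2 and Slfn2) one in LPS alone. Of the other interferon genes 4 had an LPS interval, 10 an NT interval and 2 one in LPS alone. Of all 21887 protein-coding genes, 2796 had an LPS interval at this setting, 5890 an NT interval and 0.631% one in LPS alone. With LPS intervals at or above the lowest NT value, 3 of the 10 had one in LPS alone (Rsad2, Ifit1 and Slfn2). The share of all genes was then 0.434%. With 25 kb on each side, 4 of the 10 had an NT interval (Rsad2 and Ifit2 in addition), against 11912 of all 21887 genes. In the gene body alone 1 of the 10 had one, against 8322 of all genes. When only the 4651 highest NT intervals were kept, as many as in LPS, 14 of the other genes had an interval in LPS alone and 10 in NT. At this setting 4.58% of all protein-coding genes had one in LPS alone, and 5684 of 21887 had one in NT. Stricter lists hold fewer intervals by construction, and the cause was otherwise not tested. Windows of 2.5 and 5 kb kept the same 5 genes in LPS alone (0.594% and 0.603% of all genes), and with 25 kb Rsad2 left them (0.617%). Separate LPS intervals at both gene ends were found at Rsad2 and Slfn2 also with distances of 0, 500 and 2000 bp, which were added after the data were seen. Over all protein-coding genes, 68, 116 and 145 had this layout at these distances.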

Other observations

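Separate LPS intervals within 1 kb of each gene end, with no NT interval within 10 kb, were found at 6 of 21887 protein-coding genes (0.0274%). Besides Rsad2 and Slfn2 they were Cxcl10, Ccl3 and Ccl4, which encode chemokines that draw in leukocytes, and Acod1, which encodes the enzyme that makes itaconate in activated macrophages. Their highest LPS values were 23, 11, 24 and 16. The annotated spans of Ccl3 and Ccl4 overlap, and they share an interval. At Cxcl10 (chr5:92346638-92348889) the 2 LPS intervals lay almost end to end over the gene, and cannot be told from 1 broad block. Cxcl10 and Ccl3 (chr11:83647843-83649378) are short, so 1 kb from each end takes in most or all of the gene. Whether genes other than Rsad2 and Slfn2 keep this layout at distances of 0, 500 and 2000 bp was not tested by name. The count of 6 was chosen after the positions at Rsad2 and Slfn2 had been seen, and gene length was not matched.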
